A study of Homo sapiens with 12 samples.

Results

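A set of 4052 regions of the U2OS genome carried an ATAC-seq peak in every one of 9 deposited peak lists and lay more than 1000 bp from both ends of every protein-coding gene. They were chosen by merging all entries of the 9 lists on chromosomes 1 to 22 and X, whatever their IDR (irreproducible discovery rate), wherever entries shared at least 1 bp. This gave 399183 merged regions. Of these, 8417 had a peak in all 9 lists, and the 4052 distal ones made up 48.1% of them. The remaining 4365 lay within 1000 bp of a gene end. Since the members were selected on the presence of a peak in all 9 lists, presence is a description and not a finding. The member nearest to the distance limit lay 1006 bp from a gene end, and the nearest region left out lay 995 bp away.

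Distal accessible sites of a cell line are usually read as enhancers, which bind transcription factors and act on promoters from a distance, or as insulators, which bind CTCF and bound loops of chromatin. ATAC-seq, whose enzyme is Tn5 transposase, also gives peaks at nuclear copies of mitochondrial DNA and at repeats of centromeres and telomeres. Reads of many copies can be placed there on the few that a reference holds. Promoters of long non-coding RNAs, of alternative transcripts inside genes and of genes read by RNA polymerase III are distal only by the measure that counts the ends of protein-coding genes.

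ATAC-seq had been carried out on U2OS, a human osteosarcoma line, in 12 samples of 6 groups with 2 samples each. The FOXA2 set held samples labelled WT, samples with Tet-on FOXA2 (FOXA2FL) and samples with Tet-on FOXA2dCTD, a form without the C-terminal domain. The SOX2 set held its own WT, whose label also names the SOX2 cell line, samples with Tet-on SOX2 (SOX2FL) and samples with Tet-on SOX2FOXA2CTD, a fusion of SOX2 with the FOXA2 domain. The label of each construct sample gives 500 ng/ml of doxycycline over 4 days. The genotype and treatment fields of both wild types read NA, while the protocol text describes doxycycline without an exception for them. Whether each Tet-on line is 1 clone is not given in the labels.

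The FOXA2 set came as 6 lists, 1 per library, with a fold enrichment for every peak. The SOX2 set came as 3 lists, 1 per group, with a −log10 p for each of 2 inputs, taken here to be the 2 samples, and the lower of them as the value of the list. List length ran from 19862 peaks in wild type 1 to 177650 entries in the fusion, and read depth is unknown. The lists wild type 2 and FOXA2FL 2 stood apart: they had no mitochondrial peak where the other 7 lists had 2 each, and their fold and −log10 p ranked peaks identically (Spearman 1.000 across peaks, against 0.928 to 0.990 in the other 4 lists of the set). Both lists labelled WT had a peak in the FOXA2 gene. It stood at percentile 51.0 of list wild type 1 and at 98.1 of wild type 2, against 78.9 in the wild type of the SOX2 set. A peak at a gene does not check whether a construct was expressed. Of the 7 osteoblast genes with a RefSeq promoter entry, none had a peak within 1000 bp of a start in all 9 lists. Of 10 liver genes FOXA1 alone did, and of 12 cytoskeleton genes 7 did. Osteoblast genes with such a peak numbered 1 and 0 in the wild types, 4 and 2 with FOXA2FL and 1 and 3 with FOXA2dCTD. In the SOX2 set they numbered 5 in wild type, 6 with SOX2 and 5 with the fusion. Liver genes with such a peak numbered 2 to 4 in each list.

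Sequence could be read only in RefSeq promoter windows, which run from 250 bp before to 50 bp after a start, and 617 members (15.2%) shared bases with 843 such windows of 695 genes. For 4 motifs, the 3 members that were strongest in their weakest list were chosen. The 7 windows that held the median summit of the 9 lists are shown, because their motif letters lie in the same 300 bp as that summit. They are RefSeq sequences of GRCh38.p14, on the strand of the gene, 5′ to 3′, with the motif in capitals.
ARHGAP31-AS1 (CTCF core; chr3:119322711-119323010, minus strand): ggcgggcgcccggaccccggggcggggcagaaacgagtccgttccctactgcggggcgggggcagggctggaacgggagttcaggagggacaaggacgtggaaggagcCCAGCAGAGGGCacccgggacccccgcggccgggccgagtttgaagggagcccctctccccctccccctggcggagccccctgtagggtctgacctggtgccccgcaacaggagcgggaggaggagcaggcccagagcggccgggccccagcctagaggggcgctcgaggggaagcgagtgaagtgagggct
LOC105370680 (CTCF core; chr14:102524570-102524869, plus strand): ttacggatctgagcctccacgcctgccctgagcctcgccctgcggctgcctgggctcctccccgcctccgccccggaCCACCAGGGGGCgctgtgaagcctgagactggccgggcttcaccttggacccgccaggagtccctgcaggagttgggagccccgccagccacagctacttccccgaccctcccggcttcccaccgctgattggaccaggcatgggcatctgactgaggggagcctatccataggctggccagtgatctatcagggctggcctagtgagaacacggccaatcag
LINC02168 (CTCF core; chr16:50806422-50806721, plus strand): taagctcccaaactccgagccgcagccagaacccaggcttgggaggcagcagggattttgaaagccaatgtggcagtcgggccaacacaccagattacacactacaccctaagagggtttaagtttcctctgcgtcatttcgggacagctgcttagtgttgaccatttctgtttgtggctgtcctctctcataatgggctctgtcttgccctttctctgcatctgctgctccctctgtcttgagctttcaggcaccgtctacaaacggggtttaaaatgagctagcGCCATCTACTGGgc
LINC01518 (AP-1; chr10:42691710-42692009, minus strand): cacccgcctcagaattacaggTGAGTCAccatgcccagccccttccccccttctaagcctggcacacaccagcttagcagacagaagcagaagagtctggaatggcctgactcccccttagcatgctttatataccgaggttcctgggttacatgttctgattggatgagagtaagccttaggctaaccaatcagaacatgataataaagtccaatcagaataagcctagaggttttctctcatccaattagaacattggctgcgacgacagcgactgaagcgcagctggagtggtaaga
ISG20 (AP-1; chr15:88638766-88639065, plus strand): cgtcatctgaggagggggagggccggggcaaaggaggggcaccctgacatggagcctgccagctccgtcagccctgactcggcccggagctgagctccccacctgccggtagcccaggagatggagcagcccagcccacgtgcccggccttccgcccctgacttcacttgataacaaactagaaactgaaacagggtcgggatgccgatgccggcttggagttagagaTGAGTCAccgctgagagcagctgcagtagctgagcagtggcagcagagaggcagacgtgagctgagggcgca
OLMALINC (forkhead; chr10:100373326-100373625, plus strand): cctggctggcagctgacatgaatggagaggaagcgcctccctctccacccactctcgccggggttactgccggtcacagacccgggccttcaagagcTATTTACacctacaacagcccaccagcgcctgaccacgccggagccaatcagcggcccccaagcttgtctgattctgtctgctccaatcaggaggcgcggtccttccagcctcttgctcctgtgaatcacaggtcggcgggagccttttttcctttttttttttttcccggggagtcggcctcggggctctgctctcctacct
LINC02226 (TEAD; chr5:8457515-8457814, minus strand): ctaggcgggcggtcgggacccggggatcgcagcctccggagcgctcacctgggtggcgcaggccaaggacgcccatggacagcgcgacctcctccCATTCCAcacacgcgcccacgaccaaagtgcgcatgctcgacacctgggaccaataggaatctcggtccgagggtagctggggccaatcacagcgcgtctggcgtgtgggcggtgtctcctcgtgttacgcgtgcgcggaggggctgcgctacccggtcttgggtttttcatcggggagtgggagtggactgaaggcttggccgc

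Members were wider than other distal regions. Their median width was 1200 bp (quartiles 1003 and 1449 bp, range 454 to 86140 bp), against 404 bp for distal regions with a peak in 1 to 8 lists and 1444 bp for the regions near gene ends with a peak in all 9. Together they covered 5.64 Mb. The width is in part what merging 9 lists gives, and only 289 members had every list's peaks covering at least 50% of their bases. The median distance to a protein-coding gene end was 44704 bp (quartiles 14076 and 164574 bp), shorter than the 64304 bp of distal regions with a peak in 1 to 8 lists. A total of 1323 members (32.7%) lay more than 100 kb from such an end, and 1496 (36.9%) touched the body of a protein-coding gene.

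A peak in all 9 lists was rare away from gene ends: 1.07% of 378461 distal regions had one, against 21.1% of 20722 regions within 1000 bp of a protein-coding gene end. The shortest lists were the ones most often missing. Of 4582 distal regions with a peak in 8 lists, the list without one was wild type 1 in 49.2% and wild type 2 in 26.7%, and the fusion in 0.502%. When wild type 1 was not required, 6308 distal regions qualified.

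The members fell into 9 classes by position, each counted once in the order given here. A chromosome end, within 20000 bp of the outermost peak, held 20 members (0.494%), and annotated pseudogenes of mitochondrial genes held 13 (0.321%). Gaps of more than 1 Mb without any annotated gene held 343 (8.46%). The window around a transcript start inside a protein-coding gene was met by 330 members (8.14%), all of which touched a protein-coding gene body, and that of a long non-coding RNA by another 285 (7.03%). Small RNA genes held 86 (2.12%). Of the rest, 1112 (27.4%) lay elsewhere in protein-coding genes, 639 (15.8%) in other annotated genes and 1224 (30.2%) in no annotated gene.

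Transcript starts, small RNA genes, chromosome ends, gene-free gaps and mitochondrial pseudogenes were each a larger share of members than of the 374409 distal regions with a peak in 1 to 8 lists. Starts inside coding genes made up 8.14% of members (Wilson 95% interval 7.34 to 9.03, for counting error only) and 0.377% of the others. For long non-coding RNA starts the shares were 7.03% and 0.571%, and for small RNA genes 2.12% and 0.125%. The rest of coding genes, counted after the earlier classes were taken out, went the other way, with 27.4% of members and 41.2% of the others. Counted without that order, 36.9% of members touched a coding gene body. Among distal regions with a peak in 1 to 8 lists it was 39.5% to 42.3%, depending on the number of lists. Read by class, 19% of distal regions at starts inside coding genes, 18.6% at mitochondrial pseudogenes, 15.6% at small RNA genes, 11.8% at long non-coding RNA starts and 11.4% at chromosome ends had a peak in all 9 lists. In gene-free gaps 2.65% did, in the rest of coding genes 0.715%, and in the class in no annotated gene 0.818%. These are descriptions of a set chosen by presence and carry no test. A shared base was enough to place a region at a start or gene, and members were wider, at a median of 1200 bp against 404 bp. How far width raises these shares was not tested.

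**Figure D1:**
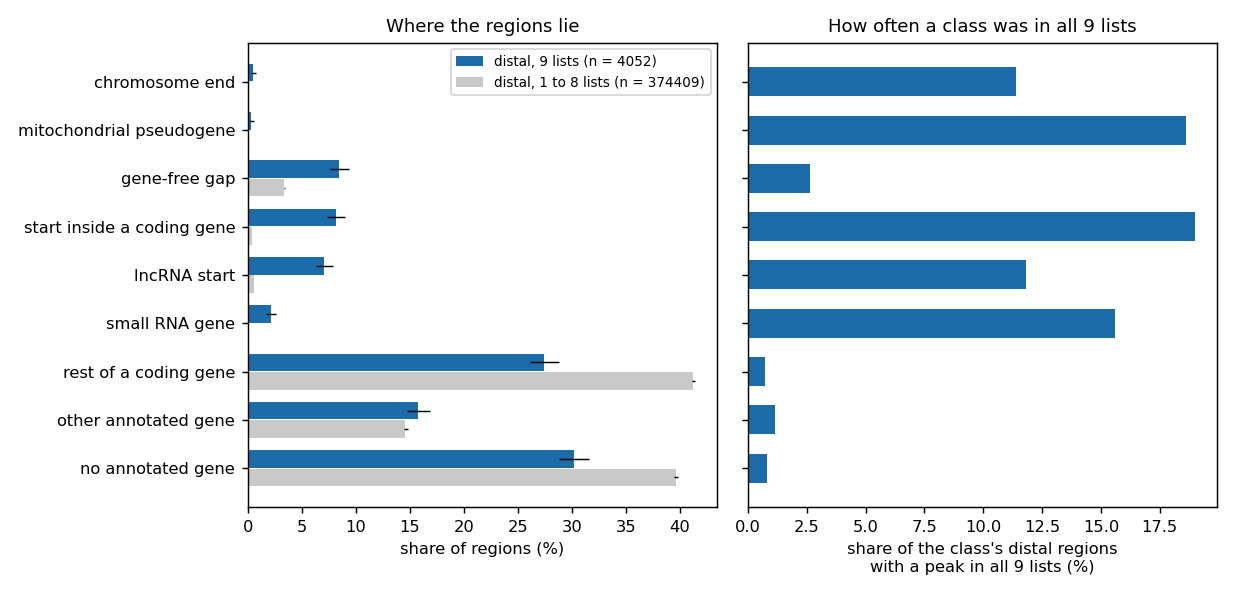
Left, share in percent of members (blue) and of distal regions with a peak in 1 to 8 lists (grey) in each of 9 position classes, with Wilson 95% intervals that cover counting error only. Right, percent of the distal regions of each class that had a peak in all 9 lists, which reached 19% at starts inside coding genes and was 0.715% in the rest of coding genes.

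The members that were strongest in every list lay mostly outside genes, and many lay at chromosome ends. Strength was read as the rank of a member among the 4052 members of a list, from 0 for the weakest to 100 for the strongest, by fold enrichment in the FOXA2 set and by −log10 p in the SOX2 set. Only 16 members ranked above 90 in all 9 lists. Of these, 6 lay at chromosome ends, 2 in gene-free gaps, 2 inside coding genes and 6 in no annotated gene. Among the last 6, members nearest to DUX4 and B3GAT1 lay 81250 and 218064 bp from the outermost peak of their chromosomes. None of the 16 lay at a transcript start.

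The member with the highest lowest rank was chr3:93470124-93471018, in the gap next to the centromere of chromosome 3 and 402033 bp from PROS1, the gene of protein S. Its fold enrichment was 16.4 and 109 in wild type 1 and 2, 15.3 and 125 in FOXA2FL 1 and 2, and 15.3 and 16.4 in FOXA2dCTD 1 and 2. Its −log10 p was 95 in the SOX2-set wild type, 97.0 with SOX2 and 88.8 with the fusion. The lists wild type 2 and FOXA2FL 2 gave several times the fold of the other 4 lists.

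The end of chromosome 12, chr12:133264737-133265500, came next. Fold enrichment there was 15.1 and 71.4 in the wild types, 15.2 and 75.7 with FOXA2FL, and 14.3 and 15.2 with FOXA2dCTD, and −log10 p was 137, 138 and 132 in the SOX2-set wild type, with SOX2 and with the fusion. The start of chromosome 10, the end of X, the start of chromosome 12 and the ends of chromosomes 22 and 13 were also among the 12 strongest. Over the 20 members at chromosome ends the median rank was 96.6 to 98.3 in the 6 lists of the FOXA2 set and 89.9, 93.6 and 96.2 in the SOX2 set.

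Among the 12 strongest, chr13:109423874-109424592 lay in no annotated gene, 215869 bp from MYO16, a myosin gene. Its fold enrichment was 21.5 and 58.3 in the wild types, 21.2 and 61.0 with FOXA2FL and 20.5 and 21.6 with FOXA2dCTD, and its −log10 p was 108, 143 and 131 in the SOX2 set. The other unannotated ones were nearest to KCNJ18, at 816506 bp, and to NID1, at 31723 bp. The first, chr17:22521118-22521763, lay close to the mitochondrial-pseudogene member chr17:22523911-22524740 and before a gene-free gap that starts at 22705637.

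**Figure D2:**
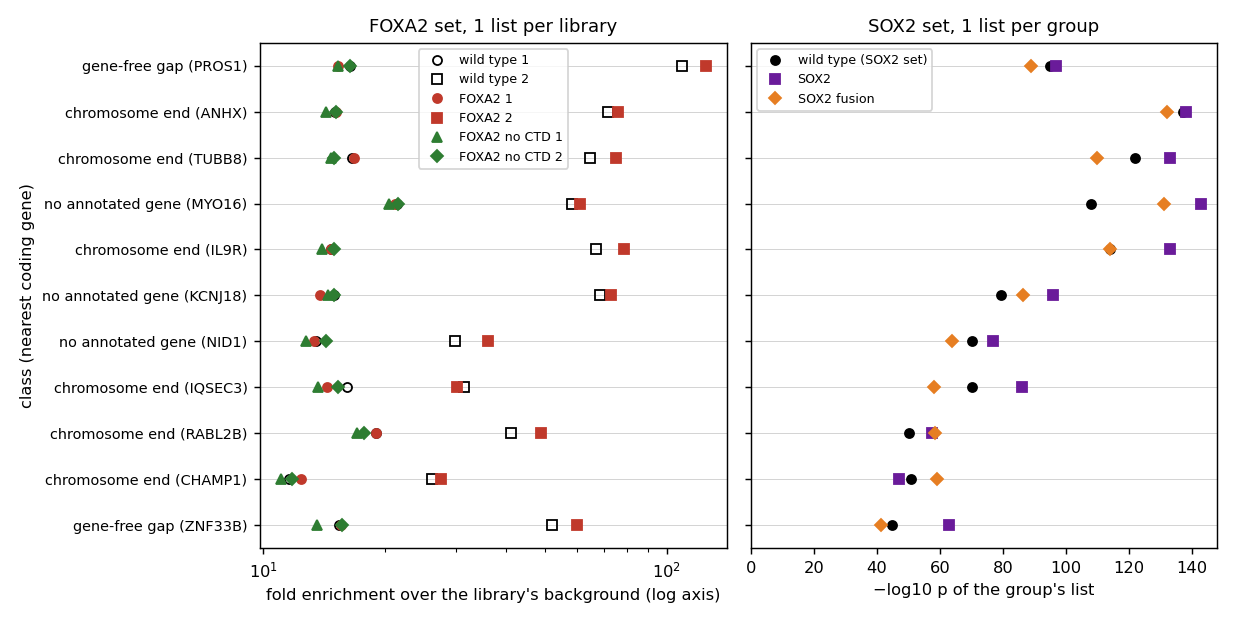
Members outside protein-coding genes among the 12 with the highest lowest rank over 9 lists, named by class and nearest protein-coding gene. Left, fold enrichment over the library's own background on a log axis, 1 symbol per library of the FOXA2 set. Right, −log10 p in the 3 lists of the SOX2 set. Wild type 2 and FOXA2FL 2 lie to the right of the other 4 libraries for all members shown, from 26.2 up to 125, against 11.1 to 21.6.

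Members at transcript starts did not reach these levels in every list. The strongest of them, at LINC02226, a long non-coding RNA gene on chromosome 5 whose window with a TEAD motif is printed above, had fold enrichments of 9.16 and 11.5 in the wild types, 6.59 and 14.7 with FOXA2FL and 9.57 and 9.70 with FOXA2dCTD. Its −log10 p was 66.3, 63.6 and 43.4 in the SOX2 set. Its ranks were 86.7 or more in every list. EHBP1, which links endocytosis to actin, had a member at a start inside the gene with ranks of 84.9 or more, and IFT74, a part of the transport machinery of cilia, had one with the same lowest rank.

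The 330 members at starts inside coding genes had median ranks of 55.8 and 44.4 in the wild types, 59.4 and 62.3 with FOXA2FL, and 54.8 and 56.9 with FOXA2dCTD. In the SOX2 set they were 68.6 in wild type, 78.3 with SOX2 and 65.2 with the fusion. The 285 at long non-coding RNA starts ran close to these, with 49.9 and 44.4, 60.8 and 59.0, 45.5 and 56.4, and then 58.2, 69.0 and 65.2. In both classes the 2 FOXA2FL libraries lay above both wild types, and the SOX2 list above its wild type. Many members shared 1 fold value in wild type 2, which is why 44.4 recurs there as a median.

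The libraries of the FOXA2 set placed small RNA genes at different levels. These genes encode RNAs of the splicing and translation machinery, many of them in near-identical copies between which short reads cannot be placed with certainty. Of 443 tRNA genes, 73 (16.5%) lay in 42 members, and of 154 snRNA genes 27 (17.5%) lay in 27 members. The snRNA genes included RNU1-1, RNU1-2, RNU1-3 and RNU1-4, which encode the U1 RNA that recognises 5′ splice sites, and the RNU2-1 array on chromosome 17, which encodes U2. SNORD3A and 4 other copies of U3, the RNA that guides cutting of the ribosomal RNA precursor, were members as well, as were 3 of 4 vault RNA genes and both RN7SL1 and RN7SL2, the RNA of the signal recognition particle. The 86 members of this class had median ranks of 37.6 and 60.8 in the wild types, 37.5 and 69.4 with FOXA2FL and 23.2 and 25.2 with FOXA2dCTD. The lists wild type 2 and FOXA2FL 2 were the high ones by fold. Ranked by −log10 p, the medians were 56.6 and 60.8 in the wild types, 49.6 and 69.4 with FOXA2FL and 37.2 and 37.1 with FOXA2dCTD, so the wild types then lay close together and both FOXA2dCTD lists stayed lowest. For the SOX2 set the medians were 56.5, 53.4 and 44.2.

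Of 1911 microRNA genes, 25 lay in 20 members. One was MIRLET7I on chromosome 12, whose product represses growth genes through a seed that all let-7 RNAs share. Its mature form from RefSeq is shown for this shared seed, bases 2 to 8, in capitals.
hsa-let-7i-5p: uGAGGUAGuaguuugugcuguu
The member that holds the hairpin, chr12:62602240-62603965, also met a long non-coding RNA start. Fold enrichment was 5.60 and 6.55 in the wild types, 6.08 and 12.6 with FOXA2FL and 3.65 and 4.93 with FOXA2dCTD, and −log10 p was 36.3, 32 and 18.3 in the SOX2 set. In ranks both FOXA2dCTD lists, at 13.8 and 31.6, lay below both wild types, at 51.3 and 44.4.

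Gene-free gaps, most of which border centromeres, held very different ranks in different lists. A total of 119 of the 343 members there lay between 121571889 and 143299517 on chromosome 1, 94 on chromosome 10, 45 on chromosome 4 and 28 on chromosome 7. The median rank of the 343 was 93.3 in wild type 2 and 91.3 in FOXA2FL 2. It was 52.6 in wild type 1, 71.9 in FOXA2FL 1, 61.7 in FOXA2dCTD 1 and 43.0 in FOXA2dCTD 2. In the SOX2 set it was 10.1 in wild type, 21.7 with SOX2 and 15.3 with the fusion. In wild type 2, 71.7% of these members ranked above 90, and in the SOX2-set wild type 0.875% did. Ranked by −log10 p, the measure of the SOX2 set, the FOXA2-set medians were 60.7 to 93.3.

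**Figure D3:**
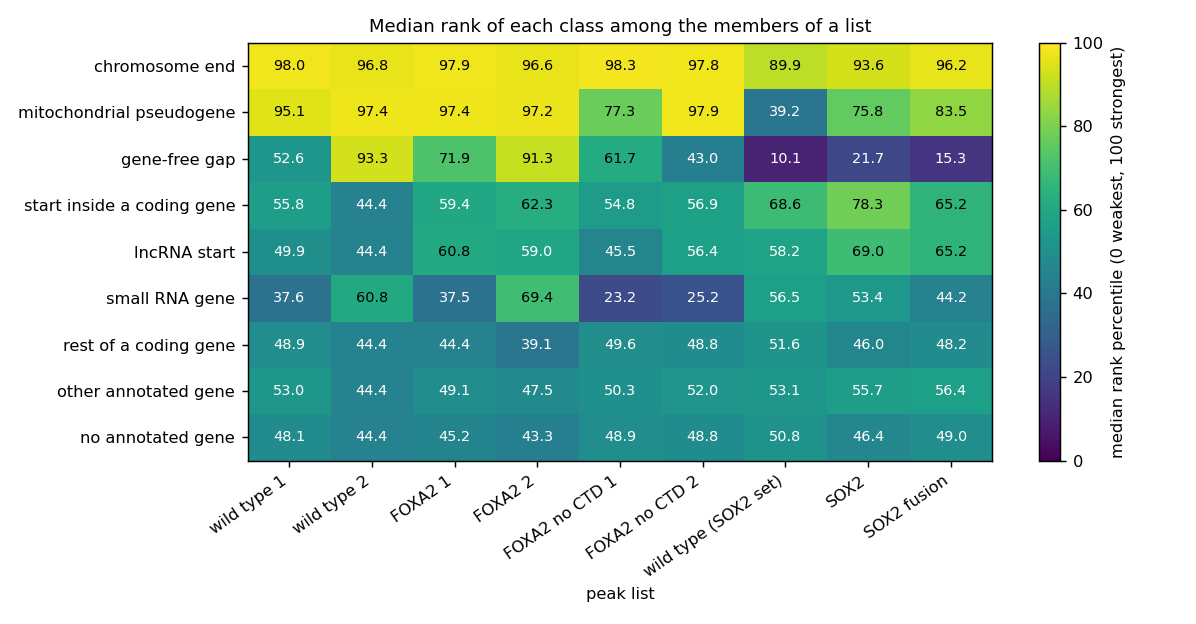
Median rank percentile of each position class (rows) among the members of each peak list (columns), from 0 for the weakest to 100 for the strongest member, by fold enrichment in the first 6 lists and −log10 p in the last 3. Chromosome ends are at 89.9 or above in every list, and gene-free gaps run from 10.1 in the SOX2-set wild type to 93.3 in wild type 2.

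The widest range of rank of all members, 99.8 points, was that of chr1:628929-635081, which holds nuclear copies of 7 mitochondrial genes, MTND1P23 and MTCO1P12 among them, and the microRNA gene MIR12136. Fold enrichment was 2.89 in wild type 1 and 108 in wild type 2, 2.77 in FOXA2FL 1 and 115 in FOXA2FL 2, and 2.89 and 2.79 in FOXA2dCTD 1 and 2. By fold it came below the chromosome 3 gap member but was near the top in the lists wild type 2 and FOXA2FL 2, and it was among the weakest in the other 4 lists of the set, with ranks of 0.148 to 1.70. By −log10 p it ranked at 99.1 or above in all 6 lists, so this range belongs to the fold measure. Across the SOX2 set its −log10 p was 37.4, 49.1 and 46.1. The next were chr16:34584553-34591104 and chr16:46382203-46401789, with folds of 73.6 and 78.3 in wild type 2 against 2.90 and 3.13 in wild type 1. Their ranks by −log10 p in wild type 1 were 94.2 and 98.2. Of 13 members at mitochondrial pseudogenes, several were high in all 6 lists, such as chr17:53105615-53106641 with folds of 15.6, 28.1, 14.2, 29.0, 15 and 15.9.

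At the other end stood members that were low in every list. The lowest mean rank, 5.49, belonged to chr22:46069582-46072672, at a start inside LOC124905135, with folds of 4.04 and 4.68 in the wild types, 3.70 and 5.11 with FOXA2FL and 2.82 and 3.15 with FOXA2dCTD. The next was at a long non-coding RNA start near ANXA2R on chromosome 5, with a mean rank of 9.23. In all, 185 members (4.57%) ranked below 50 in all 9 lists and 300 (7.40%) above 50 in all 9. The median range of a member's ranks over the lists was 66.8 points.

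Ranks of the members matched only in part between libraries of 1 group. Across the 4052 members, which share libraries and are not replicates, Spearman's correlation was 0.25 between wild type 1 and 2, 0.45 between FOXA2FL 1 and 2 and 0.57 between FOXA2dCTD 1 and 2. Between wild type 2 and FOXA2FL 2, the lists without mitochondrial peaks, it was 0.57. With −log10 p in place of fold the 4 values were 0.43, 0.62, 0.58 and 0.57, so that FOXA2FL 1 and 2 then matched more closely than wild type 2 and FOXA2FL 2. In the SOX2 set it was 0.55 for wild type against SOX2 and 0.73 for SOX2 against the fusion, and 0.77 to 0.84 between the inputs of 1 list. Summits differed too: the median distance of a list's summit from the member's median summit was 110 to 123 bp in wild type 1, FOXA2FL 1 and both FOXA2dCTD lists, and 43.0 to 46.0 bp in the other 5. Only 62 members (1.53%) had all 9 summits within 100 bp of their median.

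Where a construct was compared with its wild type, members were counted whose ranks in both libraries of the construct were above, or below, those in both wild-type libraries. With 2 libraries against 2 the smallest two-sided p of an exact permutation test is 0.333, so none was run. With FOXA2FL 17.3% of members were above and 17.6% below. With FOXA2dCTD, set against the same wild-type libraries, 19.6% were above and 17.4% below. If a member's ranks were unrelated between libraries, the share above and below together would also be 0.333. The shares of both constructs lay near that. Because ranks are relative, a rise of some members lowers others, and the counts say nothing about accessibility as such.

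With FOXA2FL, starts were more often above and gene interiors more often below. Of the members at starts inside coding genes 25.2% were above and 6.97% below, and at long non-coding RNA starts 28.8% and 9.12%. Elsewhere in coding genes 15.9% were above and 24.2% below. Differences were weakly shared between the libraries: FOXA2FL 1 minus wild type 1 against FOXA2FL 2 minus wild type 2 had a Spearman correlation of 0.22 across members and the same sign in 55.4% of them. With FOXA2dCTD the starts stood near the background, at 22.7% above and 16.1% below in coding genes, while 39.5% of small RNA members were below. Wild type 1 had 2 mitochondrial peaks, as both FOXA2dCTD lists did, and wild type 2 had none. The small RNA medians by fold were 37.6 in wild type 1 and 60.8 in wild type 2. Whether the kind of list bears on this share was not tested.

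The largest rise in rank with FOXA2FL was at chr10:46397468-46398891, at a long non-coding RNA start near ANXA8L1, an annexin gene. Fold enrichment was 3.55 and 4.68 in the wild types, 6.47 and 12.6 with FOXA2FL, and 4.92 and 4.35 with FOXA2dCTD. In ranks this was 1.83 and 6.13 against 85.2 and 80.8, so that the groups did not overlap. Next came chr1:118317704-118319595, in no annotated gene and 132476 bp from SPAG17, a sperm flagellum gene, with folds of 4.49 and 5.61 in the wild types, 9.74 and 31 with FOXA2FL and 6.72 and 6.94 with FOXA2dCTD. It was among the weakest members in the fusion list, at rank 0.346. The largest fall was chr11:110907295-110908448, nearest to ARHGAP20, with folds of 6.89 and 10.3 in the wild types, 3.48 and 5.11 with FOXA2FL and 2.86 and 4.78 with FOXA2dCTD.

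With FOXA2dCTD the largest rise was chr11:134656388-134657477, 244146 bp from B3GAT1, where fold enrichment was 4.06 and 5.61 in the wild types, 6.04 and 9.55 with FOXA2FL and 7.81 and 10.2 with FOXA2dCTD. The largest fall lay in the gene-free gap of chromosome 10, chr10:40973413-40974292, with folds of 8.44 and 17.2 in the wild types and 4.37 and 4.93 with FOXA2dCTD. FOXA2FL 2 held 17.0 there and FOXA2FL 1 held 5.11, and in ranks wild type 1 and 2 stood at 94.1 and 94.2, FOXA2FL 1 and 2 at 56.4 and 92.3, and FOXA2dCTD 1 and 2 at 33.3 and 31.6.

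In the SOX2 set the inputs of each list were ranked singly, and 34.3% of members were above wild type with SOX2 and 26.9% below. With the fusion, set against the same wild type, 28.2% were above and 26.9% below. Inputs of 1 list correlated at 0.77 to 0.84, against 0.25 to 0.57 by fold between libraries of a FOXA2-set group. Pairs that match more closely are more often both above or both below. These shares therefore do not compare with those of the FOXA2 set. Gene-free gaps were above in 74.6% with SOX2 and in 50.1% with the fusion. Starts inside coding genes were above in 37.3% and below in 14.8% with SOX2, and above in 17.3% and below in 30.0% with the fusion. Small RNA members were below in 39.5% with the fusion and in 27.9% with SOX2.

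The same 3 members led the rises with SOX2 and with the fusion. At chr11:67239462-67241377, a start inside KDM2A, which encodes a demethylase of histone H3 that binds CpG islands, −log10 p was 3.69 and 4.96 in the wild-type inputs, 45.2 and 46.6 with SOX2 and 34.9 and 40.1 with the fusion. At chr3:6807536-6808643, near the glutamate receptor gene GRM7, it was 8.77 and 10.7, then 48.2 and 43.2, then 33.3 and 32.6. The third lay 867873 bp from CDH9, a cadherin gene. Both comparisons share the wild-type list, so the match is not independent. The largest fall with SOX2 was chr15:61555771-61556893, with −log10 p of 43.2 and 40.2 in wild type, 4.15 and 7.44 with SOX2 and 9.43 and 15.4 with the fusion. With the fusion it was chr12:64180954-64182694, 3622 bp from KICS2, at 40.4 and 38.5 in wild type, 23.1 and 22.7 with SOX2 and 2.37 and 2.71 with the fusion.

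**Figure D4:**
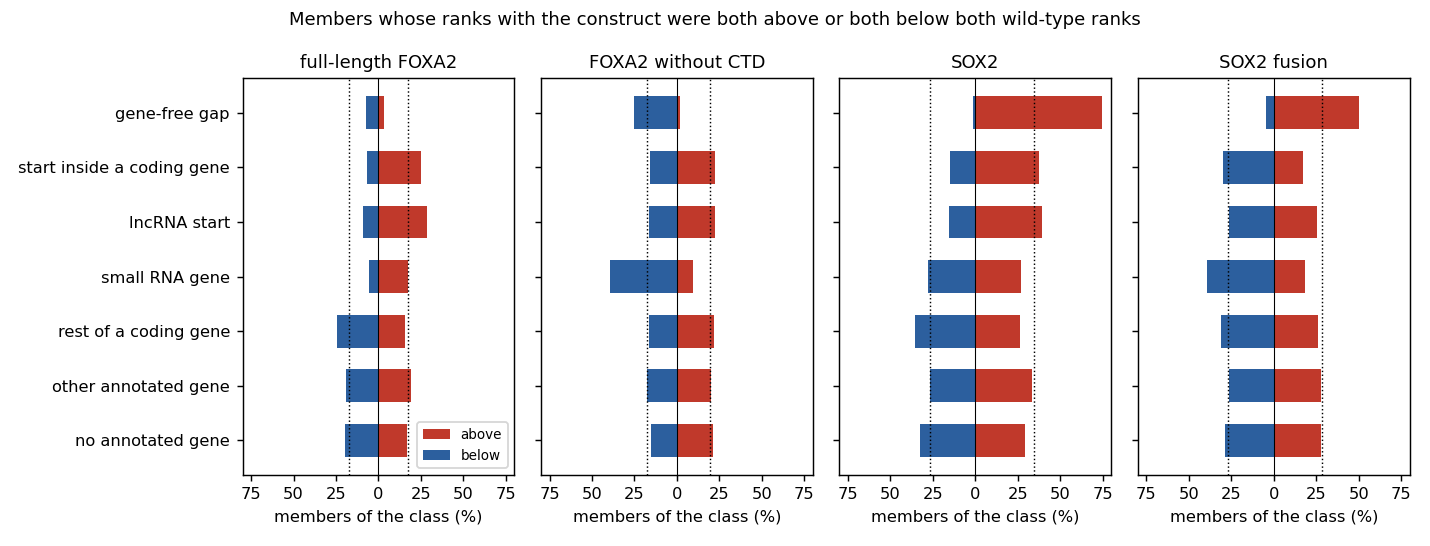
Percent of the members of a class whose ranks in both libraries or inputs of a construct were above (red, right) or below (blue, left) both wild-type ranks, for 4 constructs. Dotted lines give the same share over all 4052 members. Pairs of inputs in the SOX2 set matched more closely than pairs of libraries in the FOXA2 set, so shares do not compare between the sets. Gene-free gaps are above in 74.6% with SOX2, and small RNA genes are below in 39.5% with FOXA2dCTD.

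Promoter windows that shared bases with members were rich in GC. Their median GC content was 63.3% with 22 CpG, close to the 64.7% and 26 of windows near gene ends in all 9 lists, and far from the 54.3% and 7 of windows in distal regions with 1 to 8 lists. The median summit of a member lay 48 bp before the nearest start (quartiles at -130 and 43 bp relative to it), and 414 members had it inside a window. Each motif was searched on both strands, and sites of different motifs may overlap. A match is a description of the letters and not a bound site.

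AP-1, the FOS and JUN dimer of stress and growth signalling, had its motif TGAGTCA in 8.78% of the 843 windows (74). This compares with 2.48% of 6077 windows near gene ends in all 9 lists, 12.2% of 4118 in distal regions with 1 to 8 lists, 4.22% of 15176 windows without a peak and 4.92% of all 34961. It was in 11.6% of the long non-coding RNA windows and 6.31% of the coding ones. With the 19862 strongest peaks of each list, an alternative setting, the share in member windows was 4.6%, below that of all windows. TGTGGTT, bound by the osteoblast factor family RUNX, was in 4.86% of member windows, 2.53% near gene ends and 4.28% of all, and in 6.34% of windows in distal regions with 1 to 8 lists and 5.40% of those without a peak. TGGAATG, bound by the TEAD partners of YAP, was in 3.91% of member windows, 2.30% near gene ends and 4.19% of all, and in 5.63% of windows in distal regions with 1 to 8 lists and 5.64% of those without a peak. Neither was more frequent in members than in windows without a peak. TTGCNNAA of CEBP factors was in 7.95% of member windows and 10.4% of all, and AGATAAG of GATA factors in 1.78% and 2.67%.

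Of the motifs typical of promoters, those of NFY, CREB and NRF1 had shares in members close to those near gene ends, and those of ETS, SP and E-box factors had lower ones. AGCCAAT, bound by NFY, was in 13.8% of both and in 7.03% of all windows. TGACGTCA, bound by CREB and ATF factors, was in 3.91% and 3.36%, against 1.85% of all, and GCATGCGC, bound by NRF1, in 6.64% and 6.47%, against 3.06%. CCGGAAG, bound by ETS factors, was less frequent in members than near gene ends, at 13.4% and 22.3%, as was GGGCGGG of SP and KLF factors, at 43.3% and 54.5%; over all windows they were at 10.3% and 33.1%. The E-box CACGTG was in 7.47% and 9.99%, against 7.27% of all. The CTCF core was in 6 member windows (0.712%), all of long non-coding RNAs, and in 0.472% of all. The 3 strongest are printed above. Whether members outside these windows carry CTCF motifs was not analysed here.

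**Figure D5:**
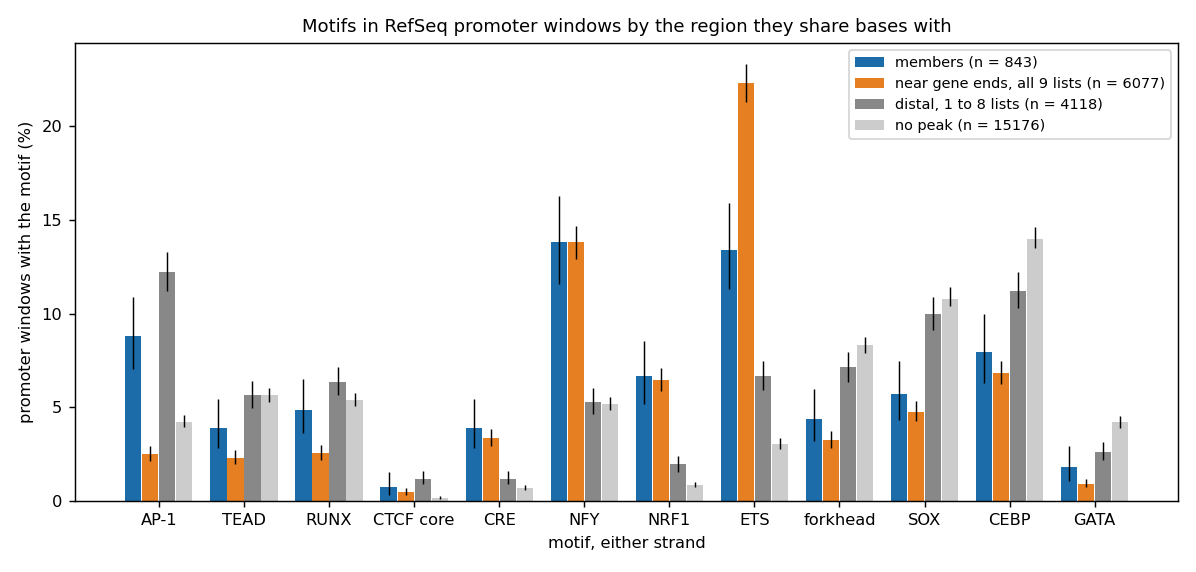
Percent of RefSeq promoter windows of 300 bp with a motif on either strand, for windows in members (blue, 843), near gene ends in all 9 lists (orange, 6077), in distal regions with 1 to 8 lists (dark grey, 4118) and without a peak (light grey, 15176), with Wilson 95% intervals for counting error only. AP-1 stands at 8.78% in members and 2.48% near gene ends, and NFY at 13.8% in both.

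Windows with the motifs of the induced factors were less frequent in members than in windows without a peak. The forkhead motif of FOXA2, TGTTTAC or TATTTAC, was in 4.39% of member windows, 8.32% of windows without a peak, whose median GC content was 49.0%, and 5.97% of all. The SOX motif, CCATTGT or CCTTTGT, was in 5.69%, 10.8% and 8.25%. The 36 members with a forkhead motif had median ranks of 40.7 and 44.4 in the wild types, 64.9 and 57.2 with FOXA2FL and 49.9 and 46.8 with FOXA2dCTD. Both FOXA2FL values lay above both wild types, by 18.5 points between means, and by 8.67 points when wild type 1 was left out of both the choice of members and the comparison. The 581 promoter members without the motif had 53.4 and 44.4, then 59.3 and 62.3, then 48.7 and 57.3, a rise of 11.9 points with FOXA2FL. Wild type 2 stood at 44.4 in both groups, so the larger rise with the motif came from wild type 1, at 40.7 against 53.4. For members without the motif, the rise with wild type 1 left out was not computed. With FOXA2dCTD the means rose by 5.80 points with the motif and 4.10 without. Whether the rises differ was not tested, since 2 libraries a group cannot show it.

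The member of OLMALINC, a long non-coding RNA gene of chromosome 10 whose window is printed above, had the forkhead letters TATTTAC at position -153 from the start. Its fold enrichment was 6.99 and 11.5 in the wild types, 6.98 and 11.9 with FOXA2FL and 4.82 and 6.85 with FOXA2dCTD, and in ranks FOXA2FL, at 90.7 and 77.0, overlapped with wild type, at 82.1 and 87.9. The 43 members with a SOX motif had median ranks of 56.3 in the SOX2-set wild type, 73.2 with SOX2 and 67.3 with the fusion. The difference with SOX2 was 16.9 points, and 10.9 points among members chosen without the list wild type 2. The 574 without the motif had 64.0, 75.2 and 65.0. The 88 members with the NFY motif ranked above the 529 promoter members without it in all 9 lists, with 59.3 against 52.2 in wild type 1, for example, and 86.0 against 73.7 with SOX2.

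Members were not spread evenly along chromosomes. With members within 10 kb of each other joined, 3664 stood alone and 136 pairs and 16 groups of 3 were found. The longest run held 9 members at chr10:40436096-40486381, in the gene-free gap, and another 7 stood in the gap of chromosome 1 at chr1:124757334-124785019. A run of 7 at chr17:43264836-43300992 and 1 of 4 at chr17:43232964-43252486 covered the U2 array. Outside gaps, a run of 4 at chr7:25849506-25863029 near NFE2L3 included a member that ranked 93.5 or above in every list. The density ran from 0.224 members per Mb on X to 2.34 on chromosome 22.

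The protein-coding genes nearest to most members mainly flanked gaps: LINC02798 (115 members), ZNF33B (80), DCUN1D4 (31), ZNF716 (30), ZNF37A (21), CWH43 (20), LOC124904970 (20), OR11H1 (19), KCNJ18 (16) and WSB1 (15). LINC02798 is listed as protein-coding in the annotation used. Without ends, gaps and mitochondrial pseudogenes the counts were led by OR11H1 (19), LOC124904970 (16), MYC (14) and CCDC200 (11). MYC is a proto-oncogene, and CCDC200 lies beside the U2 array. IGF1R, the receptor of insulin-like growth factor 1, was nearest to 7. Long genes and large intergenic stretches hold more regions, so these counts do not compare regulation.

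At least 1 member was nearest to 13.1% of 19970 protein-coding genes. Lists of genes of mesenchymal and signalling programmes were read against this share, with no test. The TGF-beta pathway had members at 6 of 13 genes (46.2%), AP-1 genes at 4 of 11 (36.4%), cytoskeleton and contractility genes at 5 of 14 (35.7%), YAP and TEAD genes at 4 of 13 (30.8%) and osteoblast genes at 3 of 12 (25%). Matrix and adhesion genes had members at 1 of 14, ITGB1, and liver genes, a programme of another cell type that FOXA2 serves, at 0 of 16.

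In the TGF-beta pathway, LTBP1, which keeps latent TGF-beta in the matrix, held 3 members in its body. At chr2:33275486-33276440 fold enrichment was 7.02 and 8.11 in the wild types, 6.07 and 8.86 with FOXA2FL and 5.33 and 6.50 with FOXA2dCTD, and −log10 p was 51.7 and 51.1 in the wild-type inputs of the SOX2 set, 34.7 and 39.8 with SOX2 and 28.9 and 28.1 with the fusion. In ranks both wild-type inputs, at 95.4 and 96.9, lay above the other 4, which reached 88.3. SMAD3, which carries the signal to the nucleus, was nearest to 3 members. The one at chr15:67149980-67151065 had folds of 5.47, 9.67, 5.28, 10.6, 6.40 and 6.39 in the same order. TGFBR2, the ligand-binding receptor, had 1 member, with folds of 6.36, 4.37, 3.81, 4.77, 7.47 and 6.87. In ranks FOXA2FL and wild type overlapped, and both FOXA2dCTD values, 91.2 and 76.8, lay above both wild types, 71.3 and 2.48.

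Near FOS, chr14:75258630-75259820 had folds of 8.50 and 8.73 in the wild types, 7.86 and 17.4 with FOXA2FL and 8.12 and 9.38 with FOXA2dCTD. Its −log10 p was 41.7 and 4.56 in the wild-type inputs of the SOX2 set, 49.5 and 46.6 with SOX2 and 32 and 30.5 with the fusion. In ranks the wild-type inputs stood apart from each other, at 86.7 and 4.38, and both constructs lay above them, with SOX2 at 95.9 and 94.5 and the fusion at 91.6 and 91.5. ATF3, a stress-induced partner of AP-1, held 2 members in its body. At chr1:212608028-212610175 the folds were 5.48, 6.86, 5.80, 14, 6.25 and 7.42 in the same order. In ranks FOXA2FL, at 73.7 and 85.9, and FOXA2dCTD, at 77.3 and 84.3, lay above both wild types, at 47.6 and 50.2. The −log10 p of this member was 52.3 and 40.6 in wild type, 47.4 and 41.7 with SOX2 and 19.1 and 19.4 with the fusion. In ranks the fusion, at 57.0 and 59.9, lay below the other 4 inputs, the lowest of which was at 88.6.

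Near CCN1, a secreted target of YAP, chr1:85606541-85608025 had folds of 7.76 and 11.2 in the wild types, 6.67 and 7.84 with FOXA2FL and 6.83 and 8.33 with FOXA2dCTD, and in ranks each construct overlapped with wild type. Values of −log10 p were 63.5 and 52.4 in the wild-type inputs of the SOX2 set, 31.2 and 29.0 with SOX2 and 35.1 and 31.2 with the fusion. In ranks both wild-type inputs, at 98.8 and 97.3, were the highest, before the fusion at 94.7 and 92.3 and SOX2 at 72.6 and 68.7. VCL, which encodes the adhesion protein vinculin, had 1 member 31166 bp away, with folds of 5.44, 9.04, 7.32, 12.6, 5.15 and 6.16. In ranks FOXA2FL, at 93.8 and 80.8, lay above both wild types, at 46.2 and 77.4. FOXA2dCTD, at 53.8 and 63.7, overlapped with wild type. The −log10 p of this member was 41.8 and 43.6 in wild type, 31.8 and 24.9 with SOX2 and 29.6 and 20.2 with the fusion. In ranks wild type, at 86.8 and 92.0, lay above SOX2, at 73.7 and 58.2, and overlapped with the fusion, at 88.0 and 63.2. DLX5, a homeobox gene of bone formation, had 1 at 2556 bp, with folds of 5.88, 7.17, 5.95, 8.52, 6.21 and 6.05. In ranks FOXA2dCTD, at 76.7 and 61.4, lay above both wild types, at 59.3 and 55.8, and FOXA2FL overlapped with them. Values of −log10 p were 31.8 and 31.2 in wild type, 35.8 and 24.4 with SOX2 and 24.0 and 28.5 with the fusion. In ranks SOX2, at 81.3 and 56.6, overlapped with wild type, at 67.2 and 69.7, and the fusion lay above it, at 74.5 and 88.2.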

How the data were processed

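ATAC-seq peaks of U2OS samples were used as deposited, on hg38 (GRCh38). Per the submitters' processing notes, FastQC 0.10.1, Trim Galore, Bowtie2 2.4.4, SAMtools 0.1.18, MACS2 and deepTools 2.4.1 were used. The deposited fold enrichment and −log10 p per peak are the authors', as is the deposited score, which was not used for ranking; fold enrichment is relative to each library's own background. Depth is unknown, so its effect on precision cannot be given. Entries were merged at 1 bp of overlap and set against RefSeq genes and promoter windows (GRCh38.p14) with Python 3.11.15, pandas 2.3.3, numpy 2.4.6 and scipy 1.17.1. Merging and distances were checked on simulated lists, and the motif search on simulated sequences with planted motifs. Motifs with variable letters, such as the CTCF core and that of CEBP factors, were not planted. For forkhead and SOX only TGTTTAC and CCATTGT were. Wilson intervals are at 95%.

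No model was fitted. The planned search of 300 bp around each summit was not made, since no genome was used here, and was replaced by promoter windows. Exons and introns were not analysed. Named regions were the 12 with the highest lowest rank (1 is not reported here), the 3 lowest in mean rank, the 3 with the widest range, the 3 largest gaps in each direction per comparison (of which some are described, none from chromosome 8), the 5 longest runs, the 10 most frequent nearest genes and up to 4 genes per list. Other regions, runs and list members named were chosen after their values were seen. Members, lists and rules were chosen with earlier results of these data known. Samples of a group are separate by label only.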

Additional observations from a re-analysis of the deposited data

Results flagged for a closer look

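In the 1224 members of the class in no annotated gene, which leaves out gene-free gaps, medians moved in opposite directions. They rose against wild type with FOXA2dCTD and fell with the SOX2-set constructs. The median rank was 48.9 and 48.8 with FOXA2dCTD, above 48.1 and 44.4 in the wild types, a difference of 2.60 between means. In the SOX2 set it was 46.0 and 45.8 with SOX2 and 48.9 and 47.8 with the fusion, below 49.1 and 51.5 in wild type, differences of -4.40 and -1.95. The change with FOXA2dCTD thus stood 7.0 points above that with SOX2 and 4.55 above that with the fusion. Some values nearly met, at 48.8 with FOXA2dCTD and 48.1 in wild type 1, and at 48.9 with the fusion and 49.1 in wild type. The difference was not tested, and in these values the sets rank by different measures. By −log10 p, the measure of the SOX2 set, FOXA2dCTD was at 47.1 and 47.5 and the wild types at 46.2 and 44.4. Members in gene-free gaps, a class of their own, were below wild type in 25.4% with FOXA2dCTD and above in 1.75%. With SOX2 74.6% of them were above and 1.46% below, and with the fusion 50.1% and 4.37%. Because ranks are relative, a rise of 1 class lowers others.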

How the results depend on the processing

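No paired analysis was possible because no result comes from a test, and the comparison of FOXA2FL minus wild type within each number is a description. Where every list had to cover 50% of a region, 289 regions qualified, 24.6% of them inside protein-coding genes and 10.7% near a start, at a median distance of 90623 bp. The CTCF core was then in 0 windows (0%), a forkhead motif in 6.98%, and the SOX2 rank difference was 1.04. With the 19862 strongest peaks of each list there were 692 members, 31.7% of regions in all 9 lists were distal, 38.9% of members lay inside genes and 26.6% near a start, and AP-1 was in 4.6%. At a −log10 p of at least 5.43 in the FOXA2 set there were 2474 members, with 43.4% distal, 18.1% near a start and AP-1 in 6.91%. SOX2-set entries at an IDR of at most 0.05 gave 46.3% distal, 38.8% inside genes and 16.7% near a start. Beyond 2000 bp 46.7% were distal. Beyond 5000 bp it was 43.2%, with 34.4% inside genes and 13.5% near a start. Counting ends of all annotated genes gave 34.7% distal and 35.2% inside genes, and 0 near a start by construction, so that no motif share could be had.

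Leaving out each list in turn gave 4077 to 6308 members (6308 without wild type 1), 48.3% to 54.5% distal, 12.3% to 15.1% near a start, a forkhead rank difference of 8.67 to 21.1 (lowest without wild type 1) and a SOX difference of 10.9 to 16.9 (lowest without wild type 2). Of the alternatives chosen after seeing the data, dropping both FOXA2-set wild types gave 10238 members, 58.1% distal, 39.7% inside genes and 11.3% near a start. Dropping chromosome ends, gaps and mitochondrial pseudogenes gave 45.7%, 40.4% and 16.8%. The cause was not tested. The forkhead difference with FOXA2FL and the SOX difference with SOX2 kept their sign in each alternative where they were computed. Neither was computed for other distances or for ends of all annotated genes. Without both FOXA2-set wild types there was no forkhead difference. Without the SOX2 list or the SOX2-set wild type there was no SOX difference. Other rank differences were not recomputed. Motif windows of other lengths, the 31-mer check and the soft-mask check were not run. Unknown depth limits what absence from a list shows.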
